A study of Mus musculus with 2 samples.

Results

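The 40 genes described here carry fatty acids into mouse cells and oxidise them in mitochondria and peroxisomes. They were taken by name: a gene belonged when probes on the array carried its symbol or an older symbol of the same gene. All 40 were found among the 21441 genes with a measured probe, 4 of them under older symbols (Dci for Eci1, Peci for Eci2, Hadhsc for Hadh and Acaa1 for Acaa1a). Each gene was represented by its brightest probe. By role, 6 members serve the carnitine shuttle and carnitine transport, 11 the mitochondrial beta-oxidation cycle, 3 the transfer of electrons from that cycle, 10 the peroxisome, 5 the activation of fatty acids to acyl-CoA, and 5 uptake and binding.

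A fatty acid is first bound to coenzyme A by an acyl-CoA synthetase. Carnitine palmitoyltransferases and a carnitine carrier then bring long chains into the mitochondrion, where each turn of a cycle of dehydrogenation, hydration, dehydrogenation and thiolysis releases acetyl-CoA. Very long and branched chains start in the peroxisome, and their shortened products leave it as carnitine esters. Many of these genes are textbook targets of PPARα, a nuclear receptor that fibrate drugs activate, in liver, heart and muscle. In brain, fatty acid oxidation is known mainly from astrocytes and tanycytes, and in the hypothalamus Cpt1a has been studied for its part in sensing fuel supply.

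The data were 4 one-colour arrays, 1 for each combination of diet and time. The diets were control feed and feed with 0.5% bezafibrate, a fibrate drug. Both groups were sampled at ZT10 and at ZT22, zeitgeber times in hours after lights on. Each array held hypothalamus RNA pooled in equal amounts from 4 mice, of which 400 ng went into labelling. Mice entered the feeding schedule at an age of 8 weeks, with 2 weeks on normal feed, 2 weeks with bezafibrate and 5 weeks back on normal feed, per the labels. The point of that schedule at which the brains were collected is not clear from the labels, and strain and sex are not given in the sources used here. The tissue was a dissected block around the hypothalamus, so every value is a mix of cell types, in which fewer cells of a type and less RNA per cell cannot be told apart.

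With 1 array per group there was no spread between pools, so no pair of arrays was tested and no p-value is given for a pair. Values after ± combine the signal errors that the scanner software reported for the spots of a ratio, and leave out the spread of mice and pools. This scanner error was 0.20 to 0.23 for the members (median 0.20). All arrays lay on 1 slide, the control pools at positions 1 and 2 and the bezafibrate pools at positions 3 and 4, so diet and side of the slide cannot be told apart. Between 68.7% and 74.6% of features were well above background, the 75th percentile of the signal lay between 893 and 1050 intensity units, and 0 spots were saturated. Of 14 hypothalamic marker genes, 13 were well above background on all 4 arrays, and Otp was not.

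The promoter sequence of 32 of the 40 members was matched by symbol in RefSeq (build GRCm38.p6, 250 bases before to 50 bases after the gene start). Abcd2, Acaa2, Acad9, Cpt1b, Crat, Decr1, Hsd17b4 and Lpl had no entry among the promoter sequences used here. PPARs bind as partners of RXR to a pair of half-sites AGGTCA with 1 base between them, so AGGTCANAGGTCA was searched on both strands, along with the single half-site, which lies inside the longer motif. The pair was in none of the members' 38 windows and in 0.04% of all 32851 windows. At so low a share, finding none in 38 windows says nothing about the members. Only exact copies of the letters within these windows were searched. The half-site was in at least 1 window of 7 of the 32 members (Acadm, Acadvl, Acsl6, Cd36, Cpt1a, Fabp7 and Scp2) and in 16.3% of all windows. The member count is of genes, some with more than 1 window, and the share is of single windows, so they are unlike measures. The E-box CACGTG, a clock-factor motif, was in the window of Slc27a1 and in 7.15% of all windows. A match of these letters is a description of the sequence and shows no binding. Stretches of 100 bases are shown for the member with the largest difference between arrays (Fabp7), for the carnitine shuttle gene measured with the most spots (Cpt1a), and for a mitochondrial and an uptake gene with the half-site (Acadm, Cd36). They are written 5′ to 3′ on the strand of the gene, and the capitals mark the half-site, here as its complement TGACCT.
Fabp7, chr10:57784705-57784804, plus strand: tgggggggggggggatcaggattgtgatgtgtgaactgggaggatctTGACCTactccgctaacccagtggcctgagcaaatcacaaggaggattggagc
Cpt1a, chr19:3323160-3323259, plus strand: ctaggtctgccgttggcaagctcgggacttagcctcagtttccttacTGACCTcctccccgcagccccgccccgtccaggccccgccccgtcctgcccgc
Acadm, chr3:153944794-153944893, minus strand: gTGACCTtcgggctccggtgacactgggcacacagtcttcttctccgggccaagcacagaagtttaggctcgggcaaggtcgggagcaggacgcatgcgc
Cd36, chr5:17836047-17836146, minus strand: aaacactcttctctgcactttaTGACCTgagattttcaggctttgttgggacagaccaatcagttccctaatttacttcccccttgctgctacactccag
The half-site began 171 bases before the gene start in Fabp7, 94 in Cpt1a, 249 in Acadm and 228 in Cd36. Whether the half-site goes with a difference between the arrays was not tested.

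All 40 members were well above background on all 4 arrays, and the mean signal reached 100 intensity units in 38 (Abcd2 and Cd36 were dimmer). Across the 4 arrays their levels were close together. From the lowest to the highest array, the scaled signal of a member spanned a median of 0.15 in log2 (1.11-fold), against 0.20 for the 15913 genes above background on all arrays and 0.18 for the 13098 of these whose mean signal reached 100. The span was under 0.32 in log2 in 33 members, from there to 1.5-fold in 6 (Cpt1b, Acsl4, Lpl, Decr1, Decr2 and Abcd2), and larger in Fabp7 alone, at 1.72-fold. The bezafibrate pool at ZT22 had the highest value of 20 of the 40 members, against 33.5% of all genes, and the bezafibrate pool at ZT10 the lowest value of 17 (42.5%), against 27.9% of all genes. For most members these orders rest on differences smaller than the scanner error. The bezafibrate pool at ZT22 was also the one in which all 9 oligodendrocyte and myelin markers were below 0 by diet (median -0.29) and by time (median -0.28), with sums of 250, 249, 261 and 227 times the 75th percentile over control and bezafibrate at ZT10, then control and bezafibrate at ZT22. Their part in the members' values was not tested. Another 20 probes of 16 members were also above background on all arrays. Their ratios departed from those of the brightest probe by a median of 0.09 and 0.11 by diet (ZT10, then ZT22) and of 0.20 and 0.21 by time (control, then bezafibrate mice), and at most by 0.86, for Abcd2 by time in bezafibrate mice.

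**Figure D1:**
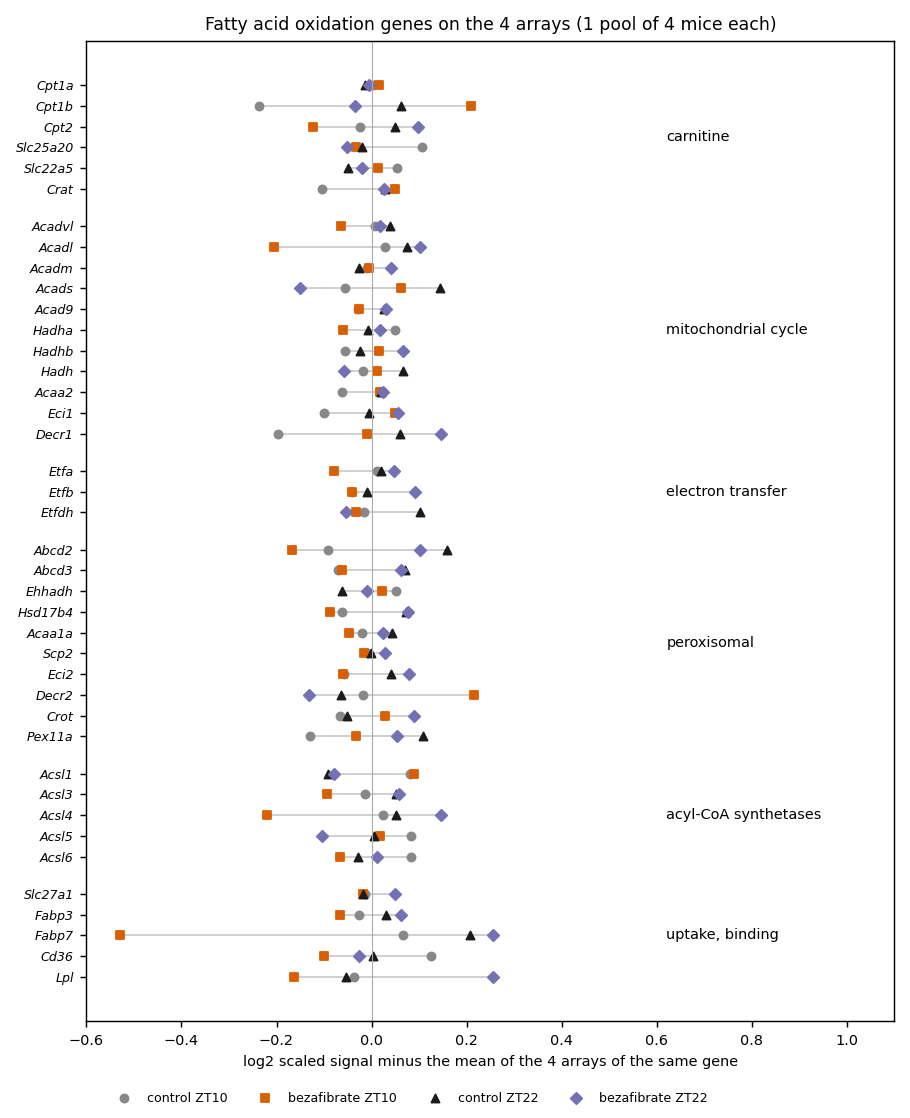
Each row is 1 gene and each mark 1 array (1 pool of 4 mice): the x axis is the log2 scaled signal minus the mean of the 4 arrays of that gene, in log2 units, with genes grouped by role. Most genes lie within a narrow band around 0, and Fabp7 on the bezafibrate array at ZT10 stands farthest from it.

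At 1.5-fold, Fabp7 was the only member to differ, lower with bezafibrate at ZT10 (1 of 40, 2.5%) and higher at ZT22 than at ZT10 in bezafibrate mice (1 of 40, 2.5%). Over all genes measured, 3.84% differed that much by diet at ZT10, 5.52% by diet at ZT22, 6.48% by time in control mice and 5.46% by time in bezafibrate mice. These shares include genes above background on only 1 of the 2 arrays, whereas every member was above background on all 4. Among genes above background on both arrays they were 2.45%, 3.18%, 4.6% and 3.62% in the same order, and among those whose mean signal also reached 100 they were 0.779%, 1.05%, 1.68% and 1.44%, where Fabp7 was 1 of 38 members (2.6%) at ZT10 by diet and by time in bezafibrate mice. None of the 40 members passed 1.5-fold by diet at ZT22 or by time in control mice. At a lower threshold of 0.32 in log2, Cpt1b and Fabp7 differed by diet at ZT10 (5.0% of members, against 9.94% of genes), and Acsl4, Decr2, Fabp7 and Lpl by time in bezafibrate mice (4 of 40, against 14.5% of genes). By diet at ZT22 and by time in control mice, 0 of 40 members passed it, where 12.8% and 15.0% of all genes did. Among genes above background on both arrays whose mean signal reached 100, the shares at that threshold were 3.36% (diet at ZT10), 4.39% (diet at ZT22), 6.91% (time in control mice) and 6.86% (time in bezafibrate mice), and those of the 38 brighter members were 5.3%, 0.0%, 0.0% and 10.5%. Read against these shares, counts of 0 to 4 members are no result about the pathway.

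Medians over the members stayed near 0. By diet, the median log2 ratio was -0.01 at ZT10 (17 members higher, 23 lower) and 0.02 at ZT22 (26 higher, 14 lower), beside 0.01 at both times over all genes above background on both arrays of the pair. By time, it was 0.04 in control mice (27 higher, 13 lower) and 0.07 in bezafibrate mice (28 higher, 12 lower), beside 0.03 and 0.04 over all genes. The median size of a member's ratio regardless of sign was 0.08 by diet at ZT10 and 0.04 at ZT22, where it was 0.07 and 0.08 over all genes.

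The only fit with residual degrees of freedom was limma's additive model of diet and time over the 4 arrays, with 1 residual degree of freedom, in which the diet effect is taken to be the same at each time. Of 17551 genes, 0.0% passed an adjusted p of 0.05 for diet and 0.0% for time, and so 0 of 40 members did in either. At an unadjusted p under 0.05 in the limma fit there were 948 genes for diet (5.4%), none of them a member, and 1880 for time (10.71%), of which Abcd2 was the only member. The lowest Benjamini-Hochberg adjusted p of any member in the limma fit was 0.872 for diet, shared by 6 members (Hadhb, Eci1, Decr1, Crot, Acsl5 and Cd36), and 0.44 for time, shared by 4 (Hsd17b4, Decr1, Acsl1 and Abcd2). For Hsd17b4 the time effect in that fit was 0.15 in log2 (SE 0.05, unadjusted p = 0.081). It was higher at ZT22 in 2 of 2 diets, each time by less than the scanner error of 0.20. Of 15913 genes above background on all arrays, 6812 were higher at ZT22 in both diets.

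In the carnitine shuttle the brightest probe of Cpt1a was level over the arrays, and the probes of Cpt1b disagreed at ZT10. Cpt1a (NM_013495), the carnitine palmitoyltransferase of the outer mitochondrial membrane that sets the rate of entry in liver and brain, was printed as 10 spots on every array. At ZT10 its mean signal was 961 intensity units in control and 1006 in bezafibrate mice, and at ZT22 it was 949.6 and 844. After scaling, these levels spanned 0.03 in log2, the narrowest range of any member. The diet ratio was 0.01 at ZT10 (SE over spots 0.05) and 0.01 at ZT22 (SE 0.04), and the time ratio was -0.02 in both diets. A dimmer Cpt1a probe with 1 spot, at 119, 130, 120 and 93.9 units on these arrays, gave 0.07 and -0.18 by diet and 0.01 and -0.24 by time.

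Cpt1b (NM_009948), the muscle-type form of that enzyme, gave signals of 113 and 160 units at ZT10 (control, then bezafibrate) and of 139 and 115 at ZT22. The bezafibrate pool was above control at ZT10 and below it at ZT22, with a diet ratio of 0.45 ± 0.21 and then of -0.10 ± 0.21. A dimmer probe of the same gene, at 35.1, 30.5, 35.3 and 26.7 units on these arrays, gave -0.26 and -0.23, so the sign at ZT10 depended on the probe. The carnitine-acylcarnitine carrier Slc25a20 read 622 and 588 units at ZT10 and 570 and 493 at ZT22, with diet ratios of -0.14 and -0.03. It was highest in the control pool at ZT10, by less than the scanner error. The inner-membrane enzyme Cpt2 was at -0.10 and 0.05 by diet, the plasma membrane carnitine transporter Slc22a5 at -0.04 and 0.03, and carnitine acetyltransferase Crat at 0.15 and 0.00. Cpt2 was 0.22 higher at ZT22 than at ZT10 in bezafibrate mice and 0.07 in control mice.

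In the mitochondrial cycle, the acyl-CoA dehydrogenases catalyse the first step, each for its own range of chain lengths. Medium-chain Acadm (NM_007382) read 7080 and 7380 units at ZT10 (control, then bezafibrate) and 7000 and 6480 at ZT22. Once scaled, these differed little, with a diet ratio of 0.00 at ZT10 and 0.07 at ZT22 and time ratios of -0.02 and 0.05. Long-chain Acadl (NM_007381) read 917 and 810 units at ZT10 and 947 and 853 at ZT22. The bezafibrate pool at ZT10 was the lowest, at -0.24 ± 0.20 against control, with 0.03 ± 0.20 at ZT22. Short-chain Acads read 354 and 399 units at ZT10 and 406 and 293 at ZT22. For Acads it was the bezafibrate pool at ZT22 that was lowest, with a diet ratio of -0.29 ± 0.20 against 0.12 at ZT10. Acadl and Acads, neighbours in the same step, were thus lowest on different arrays. Very-long-chain Acadvl was at -0.07 and -0.02 by diet, and Acad9, which also helps to assemble respiratory complex I, at 0.00 and 0.00, with a dimmer Acad9 probe at -0.05 and 0.33.

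On their brightest probes, the later steps of the cycle were as even. Hadha and Hadhb, the subunits of the trifunctional protein, were at -0.11 and 0.07 by diet at ZT10 and at 0.03 and 0.09 at ZT22. A dimmer Hadha probe read 23.4 and 32.9 units at ZT10 (control, then bezafibrate) and 22.9 and 23.8 at ZT22. It gave 0.44 and 0.23 by diet, so the sign of Hadha at ZT10 depended on the probe. Hadh (NM_008212), the hydroxyacyl-CoA dehydrogenase of shorter chains, read 1790 and 1900 units at ZT10 and 1900 and 1540 at ZT22, for diet ratios of 0.03 and -0.13. The thiolase Acaa2, which releases acetyl-CoA, had 10 spots on each array. Its log2 ratio with bezafibrate was 0.08 at ZT10 (SE over spots 0.03) and 0.00 at ZT22 (SE 0.03), and it was 0.08 higher at ZT22 than at ZT10 in control mice. The scanner error of these ratios was 0.20. All spots of an array share its pool and its scaling, so the spot errors leave out the scaling and the spread between pools.

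Of the auxiliary enzymes for unsaturated chains, the isomerase Eci1 was at 0.15 and 0.06 by diet. The reductase Decr1 (NM_026172) read 95.4 and 113 units at ZT10 and 114 and 107 at ZT22, with the control pool at ZT10 the lowest. It was 0.19 ± 0.21 and 0.09 ± 0.21 by diet and 0.26 higher at ZT22 in control mice. Its other, dimmer probe was at 0.02 and -0.48 by diet, so its sign at ZT22 depended on the probe.

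**Figure D2:**
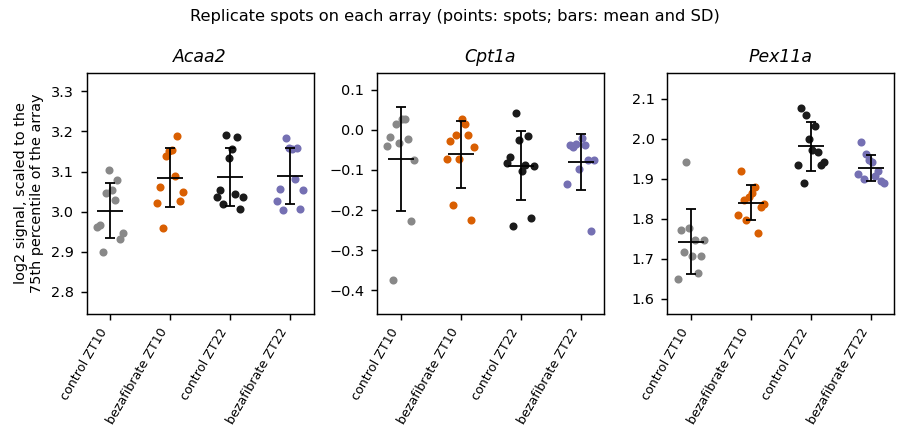
Points are the 10 spots of Acaa2, Cpt1a and Pex11a on each of the 4 arrays (log2 signal scaled to the 75th percentile of the array), and bars give the mean and SD of the spots. Cpt1a spots overlap on all arrays, while the Pex11a mean is lowest in the control pool at ZT10 and highest in the control pool at ZT22.

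Electrons from the dehydrogenases pass through the electron transfer flavoprotein, whose subunits are Etfa and Etfb, to its oxidoreductase Etfdh in the inner membrane. Etfb (NM_026695) read 16900 and 17600 units at ZT10 (control, then bezafibrate) and 17300 and 16400 at ZT22. Its diet ratio was 0.00 at ZT10 and 0.10 at ZT22. Etfdh read 4090 and 4200 units at ZT10 and 4440 and 3520 at ZT22, with diet ratios of -0.02 and -0.16, and the bezafibrate pool at ZT22 was the lowest. Etfa was at -0.09 and 0.03. On the brightest probes the subunits and the oxidoreductase did not share a direction at ZT22, and each of the 3 differed by diet by less than the scanner error. A dimmer Etfdh probe gave -0.10 and 0.00 by diet, so the direction of Etfdh at ZT22 rests on 1 probe.

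In the peroxisome, the carriers Abcd2 and Abcd3 bring acyl-CoA across the membrane. Abcd2 (NM_011994) read 85.7 and 84.5 units at ZT10 (control, then bezafibrate) and 102 and 86.7 at ZT22. Both pools at ZT22 were above both at ZT10 after scaling, by 0.25 ± 0.21 in control and 0.27 ± 0.22 in bezafibrate mice, and the limma fit gave a time effect of 0.26 (SE 0.05, unadjusted p = 0.0244, adjusted p = 0.44). Its other probe, nearly as bright at 84.2, 96.0, 65.9 and 54.2 units on the same arrays, ran the other way, at -0.35 and -0.59. No time direction can therefore be given for Abcd2. Abcd3 was at 0.14 and 0.13 by time on its brightest probe, and both of its dimmer probes were below 0 in both diets.

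The multifunctional enzymes Ehhadh and Hsd17b4 hydrate and dehydrogenate the chain, and Ehhadh is among the genes most raised by fibrates in rodent liver. Ehhadh (NM_023737) read 211 and 215 units at ZT10 and 195 and 179 at ZT22. Its diet ratio was -0.03 ± 0.20 at ZT10 and 0.05 ± 0.21 at ZT22, so neither pool of treated mice stood above its control beyond the scanner error. Hsd17b4 (NM_008292) read 9670 and 9880 units at ZT10 and 10600 and 9410 at ZT22. It was at -0.03 and 0.01 by diet, and at 0.13 and 0.16 by time, higher at ZT22 in both diets by less than the scanner error.

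The thiolases Acaa1a and Scp2 end the peroxisomal turn. Acaa1a, whose signal on a probe is uncertain because of its near-identical copy Acaa1b, was at -0.03 and -0.02 by diet, and Scp2 at -0.01 and 0.03. Of the enzymes for unsaturated chains, the isomerase Eci2 was at 0.00 and 0.04. The reductase Decr2 (NM_011933) read 1310 and 1600 units at ZT10 and 1270 and 1070 at ZT22. Its bezafibrate pools were at the ends of the range, the highest at ZT10 (0.23 ± 0.20 against control) and the lowest at ZT22 (-0.07). Its time ratio was -0.35 ± 0.20 in bezafibrate and -0.04 in control mice.

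Crot, which makes the carnitine esters that leave the peroxisome, read 1000.0 and 1110 units at ZT10 and 1010 and 984 at ZT22. It was at 0.10 and 0.14 by diet, the highest value of any peroxisomal member at ZT22, while a dimmer probe gave -0.41 and 0.02. Pex11a (NM_011068), a membrane protein of peroxisome division that fibrates raise in liver, had 10 spots. Its mean signal was 3381 and 3759.5 units at ZT10 and 3986 and 3394 at ZT22. The control pool at ZT22 was the highest and the control pool at ZT10 the lowest, and their spots overlapped little. By diet it was at 0.10 (SE over spots 0.03) at ZT10 and -0.05 (SE 0.02) at ZT22, and by time at 0.24 (SE 0.03) in control and 0.09 (SE 0.02) in bezafibrate mice.

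Among the acyl-CoA synthetases, 4 of 5 were below 0 by diet at ZT10 (median -0.08) and 4 of 5 above 0 at ZT22 (median 0.01). The authors' deposited ratio table moves the median of all genes by -0.09 at ZT10 and -0.07 at ZT22, so signs in it say little. Under the 5 other settings the median was below 0 at ZT10 in each, and at ZT22 it turned below 0 with normexp correction and with the mean of all probes. Acsl4 (NM_207625), which prefers arachidonate, read 8670 and 7610 units at ZT10 (control, then bezafibrate) and 8840 and 8350 at ZT22. The bezafibrate pool at ZT10 was the lowest, at -0.24 ± 0.20 against control, and the time ratio in bezafibrate mice was 0.37 ± 0.20. A dimmer probe of Acsl4 was at 0.01 and 0.00 for the same comparisons. Acsl1 read 239 and 250 units at ZT10 and 212 and 189 at ZT22, at 0.01 and 0.01 by diet and -0.17 and -0.17 by time. A brighter probe with the same Acsl1 accession but no symbol, which the rule for members leaves out, read 5640, 5970, 6010 and 5030 units on the 4 arrays in the order control and bezafibrate at ZT10, then control and bezafibrate at ZT22. It gave 0.03 and -0.08 by diet and 0.09 and -0.01 by time. Acsl3 was at -0.08 and 0.01 by diet, Acsl5 at -0.07 and -0.11, and Acsl6, which serves docosahexaenoate in brain, at -0.15 and 0.04.

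All 5 members for uptake and binding were below 0 by diet at ZT10 (median -0.12), and 4 of 5 were above 0 at ZT22 (median 0.05). By time in bezafibrate mice all 5 were above 0 (median 0.13), a comparison that shares the bezafibrate array at ZT10 with the first. Over all genes above background on both arrays, 52.7%, 52.2% and 59.2% were higher in these comparisons, and a list of 5 genes is short. Under the 5 settings other than the deposited table, the median was below 0 at ZT10 and above 0 at ZT22. Fabp7 (NM_021272), the brain-type fatty acid-binding protein of astrocytes, radial glia and tanycytes, read 11600 and 7990 units at ZT10 (control, then bezafibrate) and 12800 and 11700 at ZT22. The bezafibrate pool at ZT10 was lower than the other 3 pools, which were alike. Its diet ratio was -0.59 ± 0.20 at ZT10 (1.51-fold lower) and 0.05 ± 0.20 at ZT22, and its time ratio was 0.14 ± 0.20 in control and 0.78 ± 0.20 in bezafibrate mice (1.72-fold higher). It rests on 1 spot of 1 probe per array. In the limma fit its diet effect was -0.27 (SE 0.22, adjusted p = 0.88), and whether the diet ratios at the 2 times differ could not be tested. With normexp background correction the ratio at ZT10 was -0.56, under 1.5-fold.

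Markers of cells that are known to carry Fabp7 were mixed. All 9 astrocyte markers were above background on all arrays, with a median diet ratio of 0.04 at ZT10 (mean -0.02, lowest Aqp4, at -0.33). Their summed scaled signal was 146 and 147 times the 75th percentile at ZT10 (control, then bezafibrate) and 153 and 162 at ZT22. All 6 measured markers of tanycytes and ependyma were below 0 at ZT10 by diet (median -0.06, lowest Rax, at -0.26), with sums of 8.63, 8.29, 8.83 and 9.03 over the same 4 arrays. At ZT22 their median diet ratio was 0.04, with Rax at 0.87 and Dio2 at 0.65. Summed hypothalamic markers were lowest in the same pool as Fabp7, at 229 against 269 to 281 in the others. That sum is led by its brightest genes. By diet at ZT10, 10 of the 13 hypothalamic markers were below 0 and 3 above. Pomc was at -1.145 and Avp at -0.67, while Npy was at 0.72 and Agrp at 0.98. The 8 choroid plexus markers summed to 6.20, 5.93, 7.28 and 9.57 on those arrays, a sum led by Clic6 at 5600, 5590, 6560 and 5740 units. By diet, 3 of the 8 were above 0 at ZT10 (median -0.06) and 7 at ZT22 (median 1.095). Ttr read 58.8, 62.7, 110 and 1320 units on the same arrays. Of 7 measured pituitary markers, 4 were above background on all arrays and summed to 4.67, 3.03, 4.08 and 5.69. The others were Pou1f1, Prl and Gh, of which Prl read 380, 17.7, 59.2 and 2.4 units and Gh 201, 15.9, 63.9 and 9.3, both lowest in the bezafibrate pool at ZT22. The part of these cell types and of the dissection in the Fabp7 ratios was not tested.

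**Figure D3:**
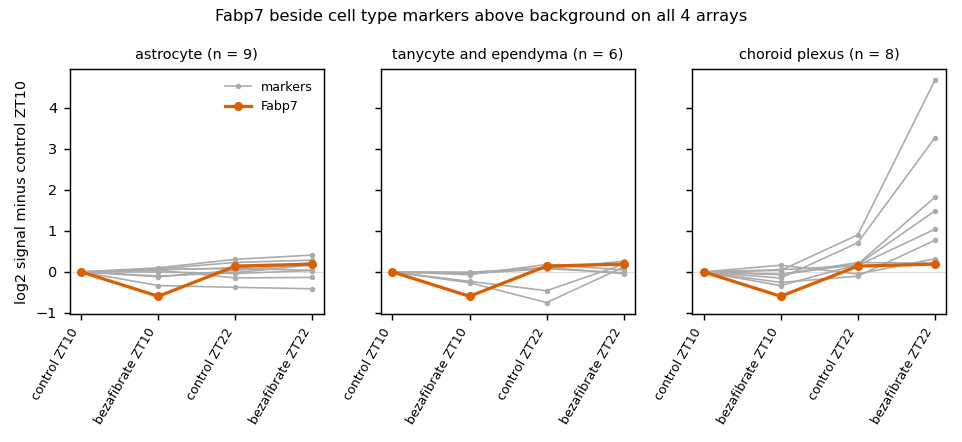
The y axis is the log2 scaled signal minus that of the control pool at ZT10, on the 4 arrays, for Fabp7 (thick line) and for the markers of astrocytes, of tanycytes and ependyma, and of the choroid plexus (thin lines). Fabp7 dips by 0.59 in the bezafibrate pool at ZT10, where the astrocyte lines range from -0.33 (Aqp4) to 0.10 (Gjb6), and the choroid plexus lines spread upward in the bezafibrate pool at ZT22.

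Lipoprotein lipase, Lpl (NM_008509), which frees fatty acids from circulating lipoproteins, read 605 and 577 units at ZT10 and 598 and 655 at ZT22. The bezafibrate pool at ZT22 was the highest. Its diet ratio was -0.12 ± 0.20 at ZT10 and 0.31 ± 0.20 at ZT22, and the time ratio was -0.02 in control and 0.42 ± 0.20 in bezafibrate mice. A dimmer probe gave -0.22 and 0.25 by diet and 0.25 by time in bezafibrate mice, with the same signs. Choroid plexus markers were high and myelin markers low in that pool, and their part in the Lpl ratio was not tested. The fatty acid translocase Cd36 (NM_007643) was dim, at 71.5 and 63.6 units at ZT10 and 65.7 and 56.9 at ZT22. Its diet ratio was -0.23 ± 0.22 at ZT10 and -0.03 ± 0.22 at ZT22, and its second probe was at -0.14 and 0.17. The heart-type binding protein Fabp3 was at -0.04 and 0.03 by diet, and the transport protein Slc27a1 at 0.00 and 0.07.

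Mitochondrial and peroxisomal steps had medians close to each other and to those of all genes. Over 18 mitochondrial and 10 peroxisomal members, the median diet ratio was 0.00 and -0.01 at ZT10 and 0.02 and 0.00 at ZT22. By time the medians were 0.05 and 0.08 in control mice, and 0.05 and 0.08 in bezafibrate mice. The difference of the medians, mitochondrial minus peroxisomal, was 0.01, 0.02, -0.03 and -0.03 in these comparisons, with no spread between pools to set it against. Its sign turned under some settings, to -0.01 by diet at ZT22 with normexp correction and to 0.05 by time in control mice with the mean of all probes.

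**Figure D4:**
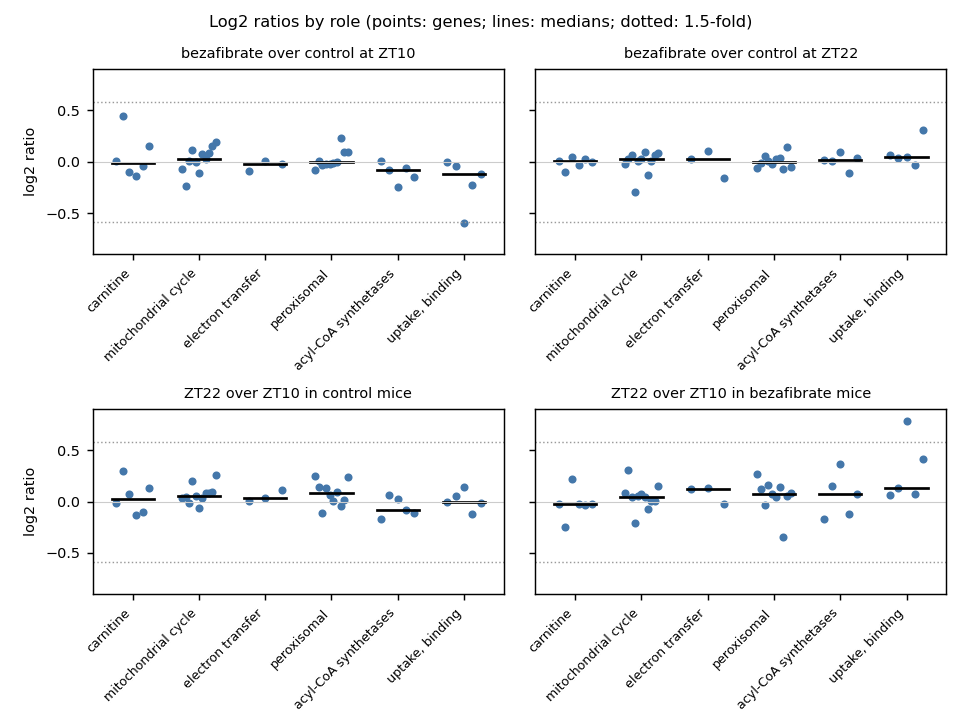
Points are genes, placed by role on the x axis, and the y axis is the log2 ratio in each of the 4 comparisons; black lines are medians and dotted lines mark 1.5-fold. Peroxisomal medians are near 0 in the diet panels and at 0.08 in both time panels, and Fabp7, in uptake and binding, is the only point past a dotted line.

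The diet ratios at the 2 times came from different arrays. Of 40 members, 10 were above 0 at both times and 7 below 0 at both (42.5% of the same sign), against 54.6% of all genes above background on all arrays. Those above 0 at both included Cpt1a, Acadm, Hadhb, Eci1, Decr1 and Crot, and those below included Acadvl, Etfdh, Slc25a20, Acsl5, Abcd2 and Cd36, chosen as examples after their values were seen. No member reached 0.32 in log2 at both times. By time, 22 members were above 0 in both diets and 7 below (72.5% of the same sign, against 67.8% of all genes). Again 0 members reached 0.32 in log2 in both.

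**Figure D5:**
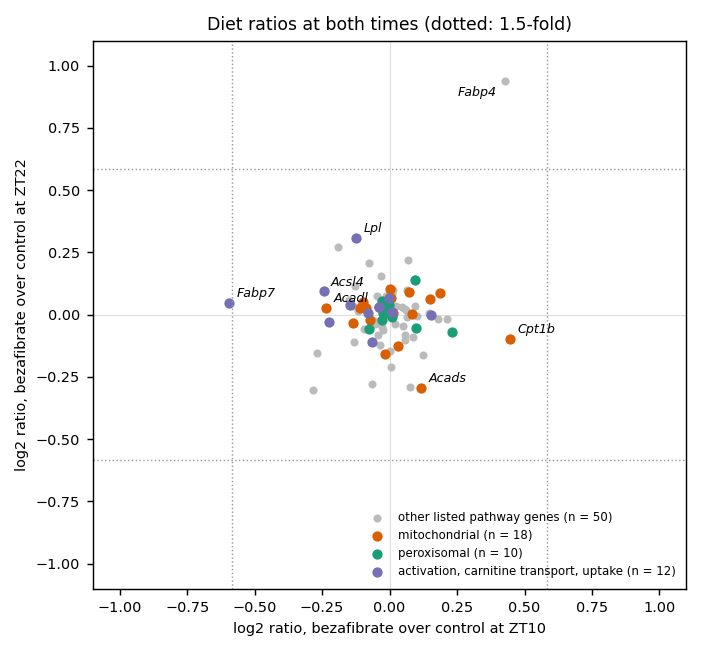
Each point is 1 gene, with its log2 ratio of bezafibrate over control at ZT10 on the x axis and at ZT22 on the y axis; dotted lines mark 1.5-fold. Members gather near the origin, and those farthest out (Fabp7, Cpt1b, Lpl, Acads) lie along 1 axis rather than along the diagonal.

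The wider pathway was as even as the members. Of 50 further genes of fatty acid oxidation, peroxisome assembly and lipid handling, 27 were above 0 and 23 below by diet at ZT10 (median 0.00), and 26 and 24 at ZT22 (median 0.01). Fabp4, the adipocyte-type binding protein, was the only 1 of the 50 to pass 1.5-fold in any comparison, and a dim one, at 27.4 and 38.3 units at ZT10 and 19.5 and 33.0 at ZT22. Both bezafibrate pools were above both controls, by 0.43 ± 0.25 at ZT10 and 0.94 ± 0.29 at ZT22. Of 5 markers of adipocytes and skeletal muscle, Adipoq and Ckm were not above background on all arrays. The other 3 had a summed scaled signal of 0.63 and 0.59 at ZT10 and 0.56 and 0.62 at ZT22. That sum is led by the muscle gene Acta1, at -0.08 and 0.15 by diet. Mylpf was at 0.07 and 0.15. The adipocyte marker Plin1, dim at 64.2, 41.7, 48.7 and 49.4 units, was at -0.68 and 0.20. The part of adipocytes in the Fabp4 ratios was not tested.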

How the data were processed

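Per the file headers, Feature Extraction 9.5.1.1 made the arrays' files. They hold, as deposited, a background-subtracted intensity per spot, not normalized between arrays. Other deposited columns gave its error and 0 or 1 marks for background, saturation and outliers. The deposited value table is, per the labels, a ratio of bezafibrate over control, checked against the arrays and used as an alternative.

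From these, log2 signal was taken minus the 75th percentile of each array. Control and outlier spots were left out, spots of a probe were averaged, and the brightest probe stood for a gene. A gene entered the shares past a threshold when well above background on at least 1 array of the pair, and the medians when so on both. The additive model was fitted with limma 3.58.1 (R 4.3.3, lmFit, eBayes, Benjamini-Hochberg over all genes). Pools of 1 group had no replicate, so the number of arrays limits the precision.

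The members and lists were chosen with earlier results of these data known. Full values are given for Cpt1a, Acadm, Ehhadh, Hsd17b4, Fabp7, Lpl, Cd36, the 3 highest and 3 lowest members of each comparison, and members past 1.5-fold. Of the other pathway genes, those past 1.5-fold are named; a gene that the rule also names is not reported here. Alternatives were normexp (offset 50), quantile normalization, other filters, probes and scalings, a threshold of 0.32 in log2, and other compartment lists.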

Additional observations from a re-analysis of the deposited data

Results flagged for a closer look

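Cpt1b, the muscle-type carnitine palmitoyltransferase, had time ratios of opposite sign in the 2 diets, each larger than its scanner error. At ZT22 over ZT10, the log2 ratio was 0.30 ± 0.21 in control mice and -0.24 ± 0.21 in bezafibrate mice. It was the only member flagged in this way, and the difference was not tested, since each value comes from 1 pair of arrays. The other probe of Cpt1b was at 0.01 and 0.04 in the same comparisons.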

How the results depend on the processing

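Of 180 recomputed medians and differences of medians, 25 turned sign, 7 of them in the authors' deposited ratio table, which shifts all genes down; each was at most 0.08 in size as reported, so no direction rests on them. At ZT10 by diet, the count of members past 1.5-fold was 0 with normexp correction and 2 at a threshold of 0.32 in log2, and by time in bezafibrate mice it was 4 at that threshold, each instead of 1. By time in bezafibrate mice, the median of the acyl-CoA synthetases was -0.071 with the mean of all probes, and that of uptake and binding was 0.27 without Cd36, the list's member under 100 units. The scanner error (median 0.20) was larger than the median size of a member's ratio in every comparison (0.044 to 0.085). A value can therefore turn sign within it. Of 360 values of the 20 members named by rule, 352 moved by less than the scanner error. The other 8 moved with the mean of all probes: Cpt1b to 0.09 and Crot to -0.16 by diet at ZT10, Decr1 to -0.20 by diet at ZT22 and -0.17 by time in bezafibrate mice, Etfdh to -0.11, Crot to -0.23 and Abcd2 to -0.05 by time in control mice, and Abcd2 to -0.16 by time in bezafibrate mice. In the limma fit, 0 of all genes passed an adjusted p of 0.05 under any alternative, so the same count of members says nothing particular to them. At an unadjusted p under 0.05 in that fit there were 0 members for diet and 1 to 3 for time. Over all genes there were 704 to 1014 for diet and 1925 to 2405 for time. No paired analysis was possible because each group has 1 array, and leaving out an array left no residual degree of freedom. Every value rests on 1 pool per group, and no spread between mice could be had.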
